A study of Mus musculus with 36 samples.

Results

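The receptors by which mouse eosinophils are recognised and kept alive were followed across 7 tissues and across a sort of small intestine eosinophils. The genes were Il5ra, Csf2ra, Csf2rb, Csf2rb2, Ccr3, Siglecf and Adgre1, 7 genes matched by symbol, a set drawn up with earlier results of these data known. All 7 of 7 were present in both deposited tables, among 9844 genes in the tissue table and 8001 genes in the sorted table, and all 7 passed the filter on low values. Total eosinophils had been flow-sorted from small intestine (4 libraries), colon (3), skin (3), lung (3), spleen (4), bone marrow (3) and blood (4) of wildtype mice. In a second set, Nmur1 positive (5 libraries) and Nmur1 negative (6 libraries) eosinophils were sorted from the small intestine of mice with the NMUR1-TdT reporter, in which the fluorescent protein TdT reports the gene Nmur1, whose product binds the neuropeptide neuromedin U. All mice were C57BL/6 of 8 to 12 weeks at steady state, males and females were pooled, and no group was treated. The sources used here do not give the markers used for sorting or how the reporter allele was built. The labels do not say that replicates came from separate mice, so p-values cover only the spread among these libraries, part of which may be technical.

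The interleukin 5 receptor joins an alpha chain, IL5RA, which binds the cytokine, to a beta chain, which signals through JAK2 and STAT5 and is shared with the receptors for GM-CSF (alpha chain CSF2RA) and interleukin 3 (alpha chain IL3RA). Mice carry a pair of beta chain genes side by side, Csf2rb, the common chain, and Csf2rb2, a chain known to serve interleukin 3. Interleukin 5 drives eosinophil production in the marrow, and GM-CSF prolongs eosinophil survival in tissue. CCR3 is the receptor for eotaxins and guides eosinophils out of blood. Siglec-F is an inhibitory lectin that binds sialylated glycans and is widely used to identify mouse eosinophils. ADGRE1, known as F4/80, is an adhesion G protein coupled receptor found on macrophages and on eosinophils.

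Values were TPM, a transcript abundance corrected for transcript length and for the size of the library, and read depth is therefore unknown. Between 7770 and 9325 genes reached 1 TPM in a tissue library, with the fewest in lung. Libraries did not stand apart by duplication, since 0 pairs of columns were identical. Nmur1 itself, which checks the sort, was at 25.9 to 53.1 TPM in Nmur1 positive and at 0 to 15.6 TPM in Nmur1 negative libraries. The granule genes Epx and Prg2, which mark developing eosinophils, averaged 1520.2 and 72327 TPM in bone marrow and 1.29 and 78.0 TPM in blood, and Epx was listed at 0 in every colon library. Of 18 other eosinophil markers listed, 16 were measured, and 8 were higher and 8 lower in bone marrow than in blood. Over all genes, 19.3% were higher and 15.3% lower there. Bone marrow libraries also held RNA of S100a8, a neutrophil gene, at 15202 to 17941 TPM, against 3.23 to 12.9 TPM in blood, and spleen replicate 4 held 3242 TPM. Erythroid and platelet marker genes summed to 39194 to 118890 TPM in blood and to 85.6 to 39607 TPM in the other tissues. What these RNAs do to the levels of the receptor genes was not tested. In bulk libraries, fewer cells of a type and less RNA per cell cannot be told apart.

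The receptor genes were among the more abundant transcripts in every tissue. By mean TPM, Ccr3 lay above 98.9% of the 9844 deposited genes in blood, and the lowest place of any member in any tissue was that of Csf2rb2 in bone marrow, above 63.1% of genes. Their ranges across tissues differed widely. The highest tissue mean was 17.9 times the lowest for Csf2rb2 and 14.1 times for Csf2rb, 6.06 times for Adgre1, 4.15 times for Ccr3, 3.24 times for Il5ra, 2.50 times for Csf2ra and 2.49 times for Siglecf. The 2 beta chain genes and Adgre1 were highest in skin and lowest in bone marrow, Ccr3 was highest in spleen, Csf2ra in small intestine and Siglecf in colon. A limma F test over the 7 tissues called all 7 genes (adjusted p between 1.16e-15 for Csf2rb and 8.42e-06 for Siglecf), in a comparison that called 81.1% of all 9806 genes tested. Of the 21 pairs of tissues, Csf2rb and Adgre1 differed in 18, Ccr3 in 17, Csf2rb2 in 16, Csf2ra in 12, Il5ra in 11 and Siglecf in 9. The median gene differed in 7.

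**Figure D1:**
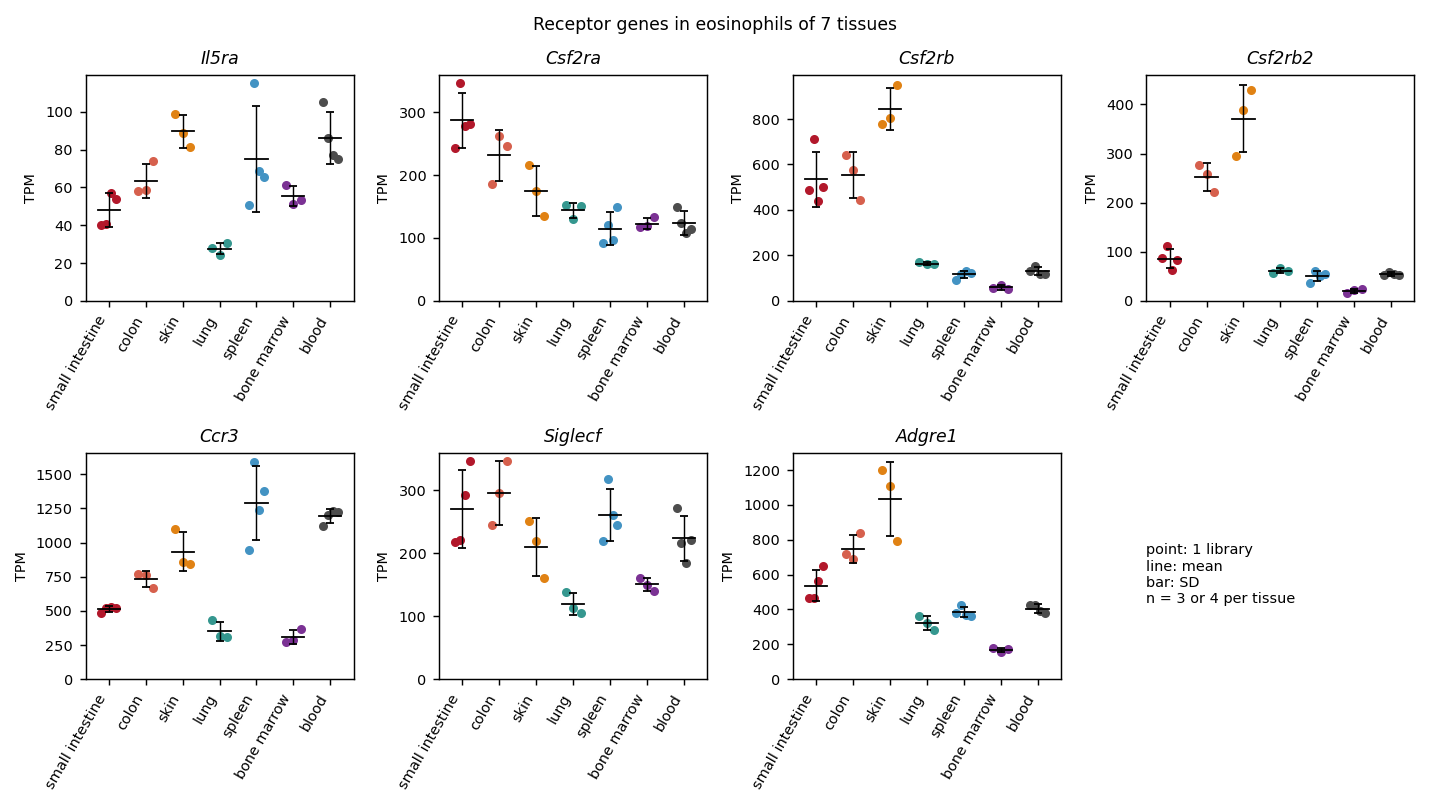
TPM of the 7 receptor genes (vertical axes, linear and starting at 0) in each library of 7 tissues (horizontal axes, blood last). Points are libraries, lines are means and bars are SDs (n = 3 or 4). Csf2rb averaged 845 TPM in skin and 130.5 TPM in blood, while Ccr3 averaged 516 TPM in small intestine and 1195 TPM in blood.

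The beta chain genes are near copies. On build mm10 (GENCODE annotation) Csf2rb (ENSMUSG00000071713.6) lies at chr15:78325752-78353847 on the plus strand and Csf2rb2 (ENSMUSG00000071714.7) at chr15:78282507-78305721 on the minus strand, 20030 bases apart. Their coding sequences of 2688 and 2634 bases matched at 95.2% of 2628 aligned bases, and the longest identical run was 242 bases. Of 2539 windows of 150 bases, the read length, 165 were identical in both genes, so reads there cannot be assigned to 1 gene by sequence, and both levels carry that uncertainty. The stretch shown here, from exon 14 of each gene, holds 7 differing bases, in capitals, and shows what separates a Csf2rb read from a Csf2rb2 read. It covers chr15:78348227-78348376 on the plus strand in Csf2rb and chr15:78285072-78285221 on the minus strand in Csf2rb2, each 5′ to 3′ in the coding direction.
Csf2rb: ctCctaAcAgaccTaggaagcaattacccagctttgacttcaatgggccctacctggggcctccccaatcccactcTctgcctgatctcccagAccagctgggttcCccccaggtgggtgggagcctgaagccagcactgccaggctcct
Csf2rb2: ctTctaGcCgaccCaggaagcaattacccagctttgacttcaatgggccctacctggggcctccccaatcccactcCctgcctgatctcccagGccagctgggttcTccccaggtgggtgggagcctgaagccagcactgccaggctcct

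Csf2rb was high in eosinophils of skin, colon and small intestine. It measured 779.8, 804 and 951 TPM in skin, 642, 575 and 446 TPM in colon, and 489, 712, 441 and 499.5 TPM in small intestine. Lung had 171, 161 and 161 TPM, spleen 93.3, 118, 133 and 122 TPM, bone marrow 57.6, 71.7 and 50.3 TPM, and blood 133, 155, 117 and 117 TPM. Every library of skin, colon and small intestine lay above every library of the other 4 tissues. Relative to the median gene of each comparison, the change against blood on the log2(TPM + 1) scale was 2.52 ± 0.170 (SE) in skin (adjusted p = 3.84e-12), 1.97 ± 0.170 in colon (4.01e-10) and 1.87 ± 0.157 in small intestine (7.30e-11). It was -1.18 ± 0.170 in bone marrow (adjusted p = 1.03e-05). Colon and small intestine did not differ past the threshold (-0.08 for small intestine against colon, 95% interval -0.43 to 0.27, adjusted p = 0.901).

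Csf2rb2 shared the high levels of skin and colon, but not of small intestine. It measured 296, 389 and 429 TPM in skin and 277, 258 and 221 TPM in colon, while small intestine had 87.0, 111, 62.8 and 83.5 TPM. Lung had 57.8, 67.7 and 60.1 TPM, spleen 37.4, 61.0, 50.4 and 54.4 TPM, bone marrow 16.1, 22.2 and 24.1 TPM, and blood 53.4, 59.7, 54.2 and 52.2 TPM. The small intestine libraries lay below all colon and skin libraries and above all blood libraries, and they overlapped with lung. Against blood the log2 change was 2.55 ± 0.196 (SE) in skin (adjusted p = 4.20e-11), 2.07 ± 0.196 in colon (2.22e-09), 0.48 ± 0.181 in small intestine (0.00743) and -1.44 ± 0.196 in bone marrow (4.21e-06). Small intestine against colon gave -1.58 ± 0.196 (adjusted p = 1.92e-06), where 12.7% of all genes were called. The small intestine call against blood was lost under quantile normalization (adjusted p = 0.242).

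Within a library the ratio of Csf2rb to Csf2rb2 does not depend on how that library was scaled. In small intestine the ratio was 6.26 ± 0.603 (SD, n = 4), from 5.62 to 7.03. The means of the other tissues ran between 2.19 and 2.96, with 2.19 ± 0.152 in colon, 2.31 ± 0.295 in skin, 2.67 ± 0.284 in lung, 2.33 ± 0.310 in spleen, 2.96 ± 0.777 in bone marrow and 2.37 ± 0.203 in blood. No small intestine library overlapped with any library of another tissue, of which the highest, in bone marrow, was 3.57. An exact two-sided permutation test of the log2 ratio gave p = 0.0286 against each of the 6 tissues, which is the lowest value possible with so few libraries (adjusted p = 0.0286 by Benjamini-Hochberg over the 6 tissues). The sum of both genes depends less than either gene on how reads were split between them. It is not free of that split, since TPM corrects each gene for its own length. The sum was 622 ± 139 TPM in small intestine, 806 ± 128 TPM in colon and 1216 ± 153 TPM in skin. It was 226 ± 4.21 TPM in lung, 167 ± 24.7 TPM in spleen, 80.6 ± 11.4 TPM in bone marrow and 185 ± 20.7 TPM in blood.

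In the small intestine eosinophils of the reporter mice, in a separate table, the ratio was 6.07 ± 0.905 (SD, n = 5) in Nmur1 positive and 4.85 ± 0.900 (SD, n = 6) in Nmur1 negative libraries. Their ranges were 5.34 to 7.59 in positive and 3.61 to 5.68 in negative libraries, which overlapped. The ratio was higher in the positive library in 4 of 4 pairs of the same number. The exact two-sided permutation p without pairing was 0.0498 over 462 regroupings (0.124 adjusted over the 5 ratios compared in the sort), and 0.0519 with a pseudocount of 5 TPM. An exact sign-flip test over the 4 pairs, added after seeing the data, gave p = 0.125, the lowest that 4 pairs allow.

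**Figure D2:**
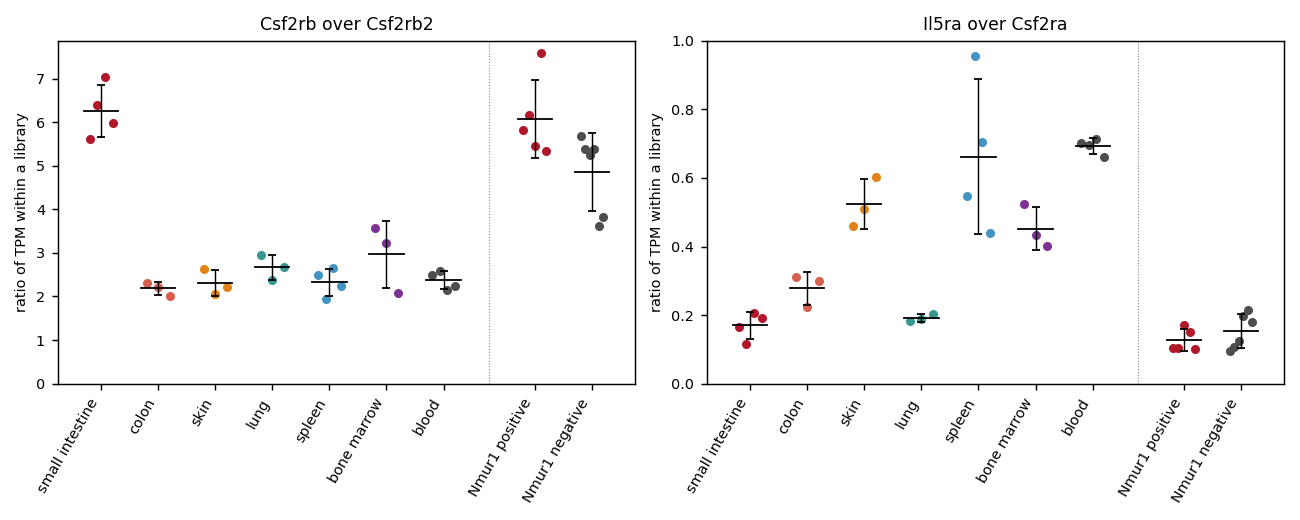
Ratio of TPM within a library (vertical axes, linear) for Csf2rb over Csf2rb2 and for Il5ra over Csf2ra, in 7 tissues and, right of the dotted line, in the Nmur1 sort of a separate table. Points are libraries, lines are means and bars are SDs. The 4 small intestine libraries lie between 5.62 and 7.03 for Csf2rb over Csf2rb2, above all libraries of the other 6 tissues. For Il5ra over Csf2ra small intestine averages 0.170 and blood 0.693.

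The alpha chains moved in different directions. Csf2ra (ENSMUSG00000059326.7, chr19:61223957-61228429, minus strand), the chain that binds GM-CSF, was highest in small intestine, at 242, 347, 278 and 281 TPM. It measured 186, 262 and 246 TPM in colon, 215, 174 and 135 TPM in skin, 152, 131 and 150.0 TPM in lung, 92.6, 120.3, 97.1 and 149.9 TPM in spleen, 117, 118 and 133 TPM in bone marrow and 149.8, 124, 108 and 114 TPM in blood. Small intestine overlapped with colon and with no other tissue. Against blood the log2 change was 1.07 ± 0.169 (SE) in small intestine (adjusted p = 1.86e-06) and 0.79 ± 0.182 in colon (0.000429), and no change past the threshold was seen in bone marrow (-0.06, 95% interval -0.44 to 0.31). Skin gave 0.31 ± 0.182 (adjusted p = 0.0403), a call that was lost under both other scalings (0.236 and 0.757), under the replicate block (0.0668), in the fit of the tissues compared alone (0.0666) and without any of blood replicates 2, 3 or 4 (0.0631, 0.103, 0.0875) or skin replicates 1 or 2 (0.242, 0.0957). Neighbours in the order of tissue means did not differ past the threshold for Csf2ra at any of the 6 steps.

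Il5ra (ENSMUSG00000005364.11, chr6:106710357-106749037, minus strand), the chain that binds interleukin 5, was the least abundant member in small intestine, colon, skin and lung. It measured 40.2, 40.6, 57.2 and 54.1 TPM in small intestine, 57.9, 58.7 and 74.0 TPM in colon, 98.9, 88.6 and 81.6 TPM in skin and 27.9, 24.5 and 30.7 TPM in lung. Spleen had 50.7, 115, 68.5 and 65.7 TPM, bone marrow 61.2, 51.2 and 53.4 TPM, and blood 105, 86.2, 77.3 and 75.1 TPM. Lung libraries lay below all others, and all small intestine libraries lay below all blood and skin libraries. Small intestine exceeded lung in TPM of Il5ra (limma adjusted p = 0.00500, where 50.2% of all genes were called). Relative to the median gene of that comparison, itself shifted by 0.58, the change was 0.18. Against blood the log2 change was -0.97 ± 0.200 (SE) in small intestine (adjusted p = 0.00135) and -1.17 ± 0.216 in lung (2.48e-06). Colon gave -0.53 ± 0.216 (adjusted p = 0.138), and passed after median-ratio scaling (0.0445) and quantile normalization (0.00481). In bone marrow the change was -0.68 ± 0.216 (adjusted p = 0.0274), and without bone marrow replicate 2 or 3 or blood replicate 1 or 2 the adjusted p lay between 0.0504 and 0.0998.

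The balance of the alpha chains differed between tissues. Il5ra over Csf2ra was 0.170 ± 0.0393 (SD, n = 4) in small intestine, 0.279 ± 0.0477 in colon, 0.524 ± 0.0731 in skin, 0.192 ± 0.0110 in lung, 0.662 ± 0.225 in spleen, 0.452 ± 0.0637 in bone marrow and 0.693 ± 0.0234 in blood. The small intestine libraries, from 0.117 to 0.206, lay below every library of colon, skin, spleen, bone marrow and blood (exact permutation p = 0.0286 each, adjusted p = 0.0343), and overlapped with lung (adjusted p = 0.457). In the sort this ratio was 0.126 ± 0.0325 in Nmur1 positive and 0.153 ± 0.0504 in Nmur1 negative libraries (exact permutation p = 0.351, adjusted p = 0.584 over 5 ratios).

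Set against the summed beta chains, Csf2ra was at 0.469 ± 0.0620 in small intestine, 0.296 ± 0.0853 in colon, 0.148 ± 0.0510 in skin, 1.55 ± 0.267 in bone marrow and 0.671 ± 0.0955 in blood. The small intestine ratio was higher than in colon and skin and lower than in bone marrow and blood (exact permutation, adjusted p = 0.0429 each), with adjusted p = 0.0571 against lung and spleen. Il5ra over the beta chains was 0.0814 ± 0.0279 in small intestine, 0.0815 ± 0.0259 in colon, 0.0751 ± 0.0164 in skin, 0.123 ± 0.0158 in lung, 0.444 ± 0.132 in spleen, 0.699 ± 0.143 in bone marrow and 0.465 ± 0.0693 in blood. The small intestine libraries lay below all spleen, bone marrow and blood libraries, and the adjusted exact p was 0.0571 for each.

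Il3ra, the interleukin 3 alpha chain, was low throughout, with 0.49 to 5.78 TPM in small intestine and 8.22 to 13.8 TPM in blood, and was lower in small intestine (-2.40 relative to the median gene); the cytokine genes Il5, Il3 and Csf2 were not analysed here. Of 30 genes of interleukin 5, interleukin 3 and GM-CSF receptor signalling, all 30 measured, 7 were higher and 12 lower in small intestine than in blood, 8 higher and 9 lower in colon, 8 and 5 in skin, 4 and 11 in lung, 0 and 0 in spleen, and 0 and 18 in bone marrow. Over all genes, 26.0% were higher and 18.0% lower in small intestine, 19.9% and 12.0% in colon, 22.9% and 14.2% in skin, 8.99% and 26.7% in lung, and 19.3% and 15.3% in bone marrow, and 1.09% were called in spleen. The median change of the list was -0.51 in small intestine and -0.82 in bone marrow, where the median over all genes is 0 by construction. Sdcbp, whose protein syntenin binds the interleukin 5 receptor alpha chain, was higher in small intestine (2.24 ± 0.188, adjusted p = 8.64e-11) and colon (1.72 ± 0.203, 9.21e-08). Lyn, a kinase at the beta chain, was higher in skin (1.23 ± 0.187, adjusted p = 1.48e-06), and Pik3r1, a regulatory subunit of PI3 kinase, was lower in small intestine (-1.90 ± 0.241, 1.32e-06) and colon (-2.13 ± 0.261, 9.33e-07).

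Among 16 listed STAT5 targets and cytokine feedback genes, 7 were higher and 7 lower in small intestine than in blood, 10 higher and 2 lower in colon, and 8 higher and 3 lower in skin. Of all genes, 44.0% were called in small intestine, 31.9% in colon and 37.1% in skin. Socs2, a feedback inhibitor of cytokine signalling, averaged 160.1 ± 70.9 TPM in small intestine (n = 4), 243 ± 51.0 TPM in colon (n = 3), 12.9 ± 10.2 TPM in skin (n = 3) and 0.863 ± 0.825 TPM in blood (SD, n = 4). Its log2 change against blood was 6.33 ± 0.434 in small intestine and 7.03 ± 0.469 in colon, with adjusted p = 3.99e-12 and 5.83e-12. Osm, the cytokine oncostatin M, was higher in colon (3.49 ± 0.426, adjusted p = 2.59e-07), and Id1, a helix-loop-helix inhibitor, was lower in small intestine (-4.18 ± 0.418, 1.19e-08).

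Ccr3 (ENSMUSG00000035448.9, chr9:124021972-124031689, plus strand) and Il5ra ran together over the 24 tissue libraries (Pearson r = 0.75), a description over libraries that share tissues and scaling, and not over the 11 sorted libraries (r = 0.036). The promoters of both are shown, with that of Siglecf beside them. RefSeq promoters on GRCm38.p6 were matched for 5 of the 7 members, not for Csf2rb and Adgre1. Each covers 300 bases around the gene's start, at chr9:124021721-124022020 (plus strand) for Ccr3, chr6:106748988-106749287 (minus strand) for Il5ra and chr7:43351091-43351390 (plus strand) for Siglecf. Capitals mark the letters GATAA, the core bound by GATA factors, which was searched on both strands.
Ccr3: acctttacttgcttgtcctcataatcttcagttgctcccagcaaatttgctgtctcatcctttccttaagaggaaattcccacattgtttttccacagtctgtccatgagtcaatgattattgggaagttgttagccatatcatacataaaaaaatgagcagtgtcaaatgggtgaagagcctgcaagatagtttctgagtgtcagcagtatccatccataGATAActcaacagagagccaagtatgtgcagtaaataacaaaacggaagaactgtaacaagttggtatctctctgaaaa
Il5ra: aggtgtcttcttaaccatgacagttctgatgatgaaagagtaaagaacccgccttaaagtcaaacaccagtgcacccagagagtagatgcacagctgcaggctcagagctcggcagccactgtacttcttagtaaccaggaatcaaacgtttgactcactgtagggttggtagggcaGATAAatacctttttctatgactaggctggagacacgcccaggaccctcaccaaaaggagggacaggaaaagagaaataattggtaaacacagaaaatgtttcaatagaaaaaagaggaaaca
Siglecf: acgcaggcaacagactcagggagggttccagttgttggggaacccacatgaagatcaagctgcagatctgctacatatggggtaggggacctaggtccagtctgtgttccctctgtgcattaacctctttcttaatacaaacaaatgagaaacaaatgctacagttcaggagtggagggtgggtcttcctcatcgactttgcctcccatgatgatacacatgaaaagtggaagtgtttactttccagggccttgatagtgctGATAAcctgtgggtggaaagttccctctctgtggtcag

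GATAA was found on the coding strand from position -29 in Ccr3, -73 in Il5ra and 12 in Siglecf, counted from the annotated start, and on the other strand in Csf2rb2, but on neither strand in Csf2ra. Of 32851 promoters of the same length, 8347 (25.4%) held it on either strand. A match describes these letters and not binding.

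Ccr3 ran opposite to the beta chains in small intestine and colon. It measured 484, 524, 529 and 525 TPM in small intestine, 770.2, 762 and 667 TPM in colon, 1103, 856 and 845 TPM in skin and 430.2, 313 and 309 TPM in lung. Spleen had 945, 1590.1, 1238 and 1379 TPM, bone marrow 274, 289 and 369 TPM, and blood 1120.2, 1204, 1232 and 1225 TPM. Libraries of small intestine, colon, skin, lung and bone marrow all lay below all blood libraries, while spleen overlapped with blood. Against blood the log2 change was -1.35 ± 0.140 (SE) in small intestine (adjusted p = 7.81e-08), -0.81 ± 0.151 in colon (0.00068), -1.36 ± 0.151 in lung (9.02e-10) and -2.01 ± 0.151 in bone marrow (2.68e-10). Skin, at -0.53 ± 0.151, missed the threshold (adjusted p = 0.0597) and passed after median-ratio scaling (0.0019), after quantile normalization (0.0103), in the fit of the tissues compared alone (0.0381), and without spleen replicate 1 or 2 (0.0297, 0.0466), lung replicate 1 (0.0457) or skin replicate 1 (0.0268). Small intestine exceeded lung in TPM (adjusted p = 0.00287, where 50.2% of all genes were called), but not relative to the median gene of that comparison (-0.01), which was itself shifted by 0.58.

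Of 17 other chemokine receptor genes listed, 4 were measured, and 3 were higher and 1 lower in small intestine than in the mean of the 6 other tissues, where 24.7% of all genes were higher and 16.1% lower. Ccr1, which shares ligands with CCR3, averaged 561 ± 55.8 TPM in small intestine (n = 4), 480.4 ± 99.0 TPM in colon (n = 3), 549.95 ± 158 TPM in skin (n = 3) and 31.5 ± 11.3 TPM in blood (SD, n = 4), with log2 changes against blood of 4.03 ± 0.219, 3.82 ± 0.236 and 3.93 ± 0.236 (adjusted p at most 1.13e-12). Ccrl2, an atypical chemokine receptor, averaged 2233 ± 279.8 TPM in small intestine and 12.3 ± 4.22 TPM in blood. Of 9 listed chemokine genes 5 were measured, and the eotaxin genes Ccl11 and Ccl24 were not analysed here. In skin 4 were higher and 1 lower than in blood, where 22.9% of all genes were higher and 14.2% lower. Small intestine had 1 higher and 2 lower (26.0% and 18.0% of all genes), and colon 1 and 0 (19.9% and 12.0%). Lung had 0 and 0 (8.99% and 26.7%), and bone marrow 0 and 2 (19.3% and 15.3%). Spleen had 1 and 0, where 1.09% of all genes were called. In the sort 2 were measured, with 0 higher and 2 lower in positive cells (9.18% and 5.25%). Ccl7, a ligand of CCR3, was at 90.4 to 128 TPM in skin and listed at 0 in every blood library. Ccl6 and Ccl9, whose products are known as ligands of CCR1, were also in the list. Ccl6 averaged 3794 ± 799 TPM in small intestine and 23684 ± 887 TPM in blood (-2.81 ± 0.132, adjusted p = 1.05e-14), and Ccl9 averaged 2029 ± 639.9 TPM in skin and 96.9 ± 21.7 TPM in blood.

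Siglecf (ENSMUSG00000039013.16, chr7:43351341-43359531, plus strand) varied least across tissues, by 2.49 times against 2.50 times for Csf2ra. It measured 218, 221, 293 and 347 TPM in small intestine, 245, 296 and 347 TPM in colon, 251, 219 and 161 TPM in skin, 139, 113 and 105 TPM in lung, 219.7, 317, 261 and 245 TPM in spleen, 160.5, 149.8 and 141 TPM in bone marrow and 271, 217, 185 and 221 TPM in blood. Lung and bone marrow lay below all blood libraries, and small intestine, colon, skin and spleen overlapped with blood. The change against blood was -0.47 ± 0.185 (SE) in lung (adjusted p = 0.000435) and -0.62 ± 0.185 in bone marrow (0.0208). The p-value for lung tests the change before the shift by the median gene, which was itself at -0.43 there. The bone marrow call was lost without bone marrow replicate 2 or 3 or blood replicate 1 (adjusted p = 0.0582, 0.0793 and 0.0761). In small intestine it was 0.12 (95% interval -0.23 to 0.47, adjusted p = 0.237), and skin was lower under quantile normalization (-0.50, 0.0272). None of the 6 steps in the order of tissue means differed past the threshold for Siglecf.

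Of 8 listed other Siglec genes, 5 were measured, and 3 were higher and 1 lower in small intestine than in the mean of the 6 other tissues, where 40.8% of all genes were called (24.7% higher and 16.1% lower). The median change of the list was 0.55. Cd22, a Siglec best known on B cells, was at 61.4 to 87.0 TPM in small intestine and at 0 to 5.21 TPM in the other 6 tissues. Cd33 was at 168 to 237 TPM in small intestine and at 4.06 to 25.2 TPM in the other tissues. Against the mean of the 6 other tissues their log2 changes were 5.46 ± 0.295 and 4.05 ± 0.253, with adjusted p = 4.40e-14 and 6.09e-13, while Siglecg was lower (-2.32 ± 0.158, 1.34e-11). Of the 16 measured of 20 listed genes of Siglec signalling and ligand synthesis, 3 were higher and 5 lower in small intestine than in the other tissues, a share near the 40.8% of all genes called there. Among them were the fucosyltransferase gene Fut4, which was higher (2.79 ± 0.233, adjusted p = 1.29e-10), and the sialyltransferase gene St3gal4, which was lower (-1.53 ± 0.207, 3.71e-06). B and plasma cell RNA was present in some of these libraries, with Jchain at 8.33 to 909 TPM in small intestine and 0 to 2.55 TPM in blood, and its part in the level of Cd22 was not tested.

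Adgre1 (ENSMUSG00000004730.15, chr17:57358691-57483527, plus strand) followed the beta chains across tissues, with Pearson r = 0.91 with Csf2rb2 and 0.88 with Csf2rb over the 24 libraries, but not within the sort, where r was -0.29 and -0.25 over 11 libraries. It measured 463, 466, 563 and 649.8 TPM in small intestine, 718, 689 and 840.4 TPM in colon, 1198, 1107 and 795 TPM in skin and 366, 322 and 281 TPM in lung. Spleen had 381, 428, 367 and 365 TPM, bone marrow 179.9, 158 and 173 TPM, and blood 427, 424, 393 and 377 TPM. The libraries of small intestine, colon and skin lay above, and those of lung and bone marrow below, all blood libraries. Against blood the log2 change was 1.16 ± 0.143 (SE) in skin (adjusted p = 4.43e-08), 0.78 ± 0.143 in colon (2.58e-05) and -1.31 ± 0.143 in bone marrow (1.48e-07). In small intestine it was 0.25 ± 0.132 (adjusted p = 0.0187), a call lost after median-ratio scaling (0.0974), after quantile normalization (0.944), and without small intestine replicate 4 (0.0899) or blood replicate 4 (0.0527). The change in lung was 0.09 ± 0.143 relative to the median gene and -0.33 before that subtraction (adjusted p = 0.0698), with adjusted p = 0.0450 in the fit of the tissues compared alone and 0.0378 without skin replicate 4, and it was -0.40 under quantile normalization (0.0123).

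Adgre1 is also a macrophage gene, so macrophage and monocyte markers are given beside it. Of 19 listed, 8 were measured. They summed to 449 to 836 TPM in small intestine, 211 to 275 TPM in colon, 429 to 757 TPM in skin, 306 to 372 TPM in lung, 353 to 945 TPM in spleen, 4443 to 4973 TPM in bone marrow and 140.1 to 289 TPM in blood, where C1qa and C1qb were at 0 in every library. The sums lay above those of all blood libraries in skin and small intestine, where Adgre1 was also higher. They also did so in lung and spleen, where Adgre1 was not called higher. They overlapped with blood in colon, where Adgre1 was higher, and were highest in bone marrow, where Adgre1 was lowest. Marker by marker against blood, 6 were higher and 2 lower in small intestine, 5 and 1 in colon, and 7 and 1 in skin. The counts were 1 and 1 in lung, 3 and 0 in spleen, and 5 and 1 in bone marrow. Over all genes, 26.0% were higher and 18.0% lower in small intestine, 19.9% and 12.0% in colon, and 22.9% and 14.2% in skin. They were 8.99% and 26.7% in lung and 19.3% and 15.3% in bone marrow, and 1.09% were called in spleen. Cd68 averaged 92.4 ± 12.8 TPM in small intestine, 5.77 ± 2.27 TPM in colon, 23.3 ± 10.996 TPM in skin and 4.53 ± 5.77 TPM in blood. Their part in the level of Adgre1 was not tested.

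Counted by tissue against blood, small intestine differed in 6 of 7 receptor genes, where 44.0% of all genes were called (26.0% higher and 18.0% lower). Colon differed in 5, where 31.9% of genes were called (19.9% higher and 12.0% lower). Skin differed in 4, where 37.1% were called (22.9% higher and 14.2% lower). Lung differed in 3, where 35.7% were called (8.99% higher and 26.7% lower), and bone marrow in 6, where 34.6% were called (19.3% higher and 15.3% lower). Small intestine had 4 higher (Csf2rb, Csf2rb2, Csf2ra, Adgre1) and 2 lower (Ccr3, Il5ra), colon the same 4 higher and Ccr3 lower, and skin those 4 higher. All calls were lower in lung (Siglecf, Ccr3, Il5ra) and in bone marrow (all members but Csf2ra). The lung count depends on scaling: the median gene was at -0.43 in lung against blood, and after median-ratio scaling 6 were called, with Csf2rb (0.87, adjusted p = 0.00126), Csf2rb2 (0.70, 0.0202) and Csf2ra (0.76, 0.00907) higher. The 35.7% is from the fit without that scaling, and the share of all genes called under it is not given here. In spleen limma called 0 of 7, of which 0 had an unadjusted p under 0.05, where 1.09% of genes were called. These comparisons share the 4 blood libraries.

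**Figure D3:**
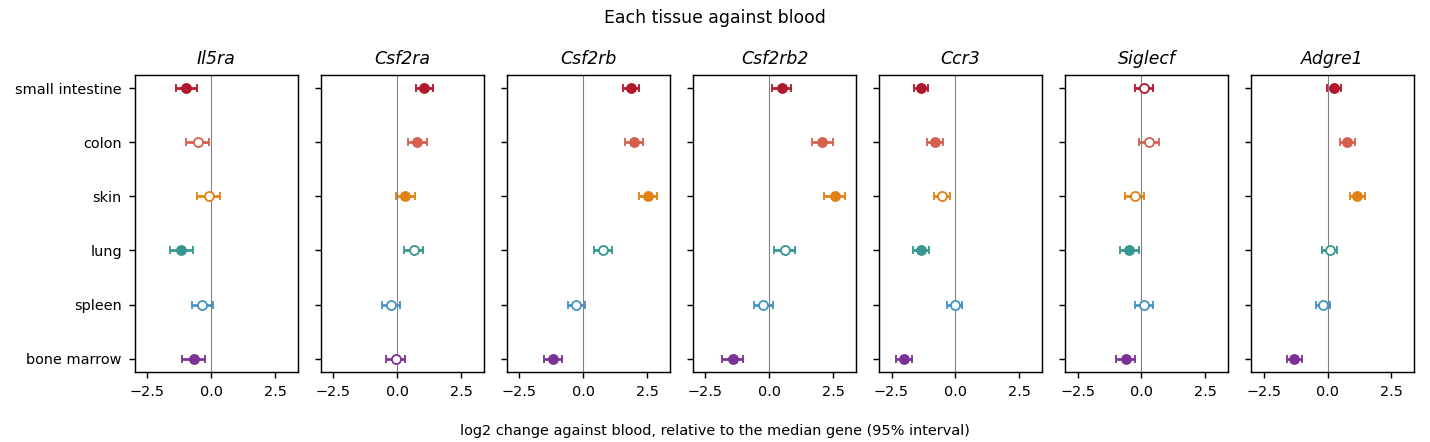
Log2 change of each receptor gene in 6 tissues against blood, with the median gene of that comparison set to 0 (horizontal axes, with 95% intervals; 1 row per tissue). Filled points had an adjusted p under 0.05 in a test of the change before the shift by the median gene, and open points did not. Csf2rb and Csf2rb2 run from -1.18 and -1.44 in bone marrow to 2.52 and 2.55 in skin, and Ccr3 lies at or below 0 in all 6 tissues.

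Small intestine, the tissue in the title of the series, was also set against the unweighted mean of the 6 other tissues. Of the 7 genes 5 differed, 4 higher and 1 lower, where 40.8% of all genes were called (24.7% higher and 16.1% lower). Csf2rb was higher by 1.27 ± 0.122 (SE; adjusted p = 8.21e-10) and Csf2ra by 0.85 ± 0.131 (1.33e-06), and Ccr3 was lower (-0.54 ± 0.108, 0.00266). Csf2rb2 gave -0.09 (95% interval -0.38 to 0.20) and Il5ra -0.47 ± 0.155 (adjusted p = 0.0635). Il5ra was called lower after median-ratio scaling (-0.50, adjusted p = 0.0102) and quantile normalization (-0.58, 0.00116), and without spleen replicate 1 (0.0313) or small intestine replicate 3 (0.0458). Siglecf at 0.30 ± 0.133 (0.0152) and Adgre1 at 0.18 ± 0.102 (0.0230) lost their calls after median-ratio scaling (adjusted p = 0.0843 for Siglecf and 0.196 for Adgre1), after quantile normalization (0.409 and 0.800) and without small intestine replicate 3 (0.0650 and 0.0797). Without the bone marrow libraries, an alternative chosen after seeing the data, Siglecf gave 0.17 (adjusted p = 0.0672) and Adgre1 -0.13 (0.861), and Csf2rb2 was lower (-0.53, 0.0402). Without small intestine replicate 4 the count was 3, with adjusted p = 0.130 for Siglecf and 0.168 for Adgre1.

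With small intestine, colon, skin and lung pooled against spleen, bone marrow and blood, 6 of 7 genes differed, 4 higher and 2 lower, where 53.4% of all genes were called (22.4% higher and 31.1% lower). Csf2rb (2.36 ± 0.0919, adjusted p = 1.05e-16), Csf2rb2 (2.08 ± 0.106, 3.94e-14), Adgre1 (1.16 ± 0.0772, 3.26e-11) and Csf2ra (0.90 ± 0.0985, 6.23e-07) were higher. Ccr3 (-0.24 ± 0.0816, adjusted p = 0.000247) and Il5ra (-0.25 ± 0.117, 0.00487) were lower. Siglecf gave 0.18 ± 0.0999 (adjusted p = 0.837). The p-values test the change before the shift by the median gene, which was itself at -0.155 in this comparison. Under quantile normalization, Siglecf was lower (-0.22, adjusted p = 0.0141).

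The sort asked whether reporter-positive eosinophils of the small intestine differ from reporter-negative ones. Siglecf was higher in Nmur1 positive cells, at 199, 229.9, 314, 218 and 249 TPM, against a lowest of 114, a median of 158.5 and a highest of 202 TPM in the 6 Nmur1 negative libraries. The groups overlapped only where the lowest positive library was below the highest negative one. The log2 change relative to the median gene was 0.38 ± 0.169 (SE, adjusted p = 0.0236), and Siglecf was 1 of 7 members called, where 14.4% of all genes were called (9.18% higher and 5.25% lower). Replicate numbers paired the libraries of this sort, and Siglecf was higher in the positive library in 4 of 4 pairs. With the replicate block it was 0.49 (adjusted p = 0.00246), and Csf2rb was called as well (0.29, adjusted p = 0.00713), so that 2 members differed. The 14.4% is from the fit without the block, and the share of all genes called with it is not given here. The Siglecf call was lost after median-ratio scaling (adjusted p = 0.102) and without Nmur1 positive replicate 4 (0.0718) or 8 (0.0549) or Nmur1 negative replicate 5 (0.0512).

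The other receptor genes did not pass in the fit without the block. Csf2rb measured 656, 923, 508, 761 and 521 TPM in Nmur1 positive libraries, against a lowest of 324, a median of 448 and a highest of 688 TPM in Nmur1 negative ones (0.27 ± 0.209, adjusted p = 0.126). Csf2ra averaged 291 ± 57.1 TPM in positive and 234 ± 67.6 TPM in negative libraries (adjusted p = 0.258), and Csf2rb2 averaged 111 ± 23.1 and 99.3 ± 19.4 TPM (0.579). Both were higher in the positive library of 4 of 4 pairs. Pairs compare TPM before the shift by the median gene, which was itself 0.22 higher in positive libraries. The mean paired log2 change of Csf2rb2 was 0.21. With the replicate block, the change relative to the median gene was -0.0191 for Csf2rb2 (adjusted p = 0.340) and 0.25 for Csf2ra (0.0504). Ccr3 averaged 449 ± 116 TPM in positive and 519 ± 80.7 TPM in negative libraries (-0.45, adjusted p = 0.389) and was higher in the positive library of 0 of 4 pairs. Il5ra, at 35.95 ± 7.38 and 34.7 ± 13.4 TPM, and Adgre1, at 441 ± 91.2 and 380.2 ± 68.9 TPM in positive and negative libraries, were higher in 3 of 4 pairs each (adjusted p = 0.814 and 0.388). The ratio of Siglecf to Ccr3 was 0.582 ± 0.249 in positive and 0.323 ± 0.121 in negative libraries (exact permutation p = 0.0260, adjusted p = 0.124 over 5 ratios), and was higher in the positive library in 4 of 4 pairs (exact sign-flip p = 0.125).

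Other RNAs moved with the sort. Macrophage and monocyte markers, of which 7 of 19 were measured, summed to 574 to 811 TPM in Nmur1 positive and 205 to 419 TPM in Nmur1 negative libraries, and 4 were higher and 0 lower, where 9.18% of all genes were higher. Lyz2 averaged 281 ± 69.0 TPM in positive and 67.0 ± 27.1 TPM in negative libraries, and Cd68 115 ± 23.7 and 49.3 ± 10.8 TPM. Their part in the Siglecf difference was not tested. Cd33 (1.54 ± 0.240, adjusted p = 0.000124) and Cd22 (1.68 ± 0.303, 0.000464) were higher in positive cells. Of the 30 genes of beta chain signalling, 2 were higher, Lyn (0.31 ± 0.133, adjusted p = 0.0128) and Pik3r5 (0.42 ± 0.151, 0.00964), and 0 were lower, a smaller share than the 9.18% higher and 5.25% lower among all genes.

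**Figure D4:**
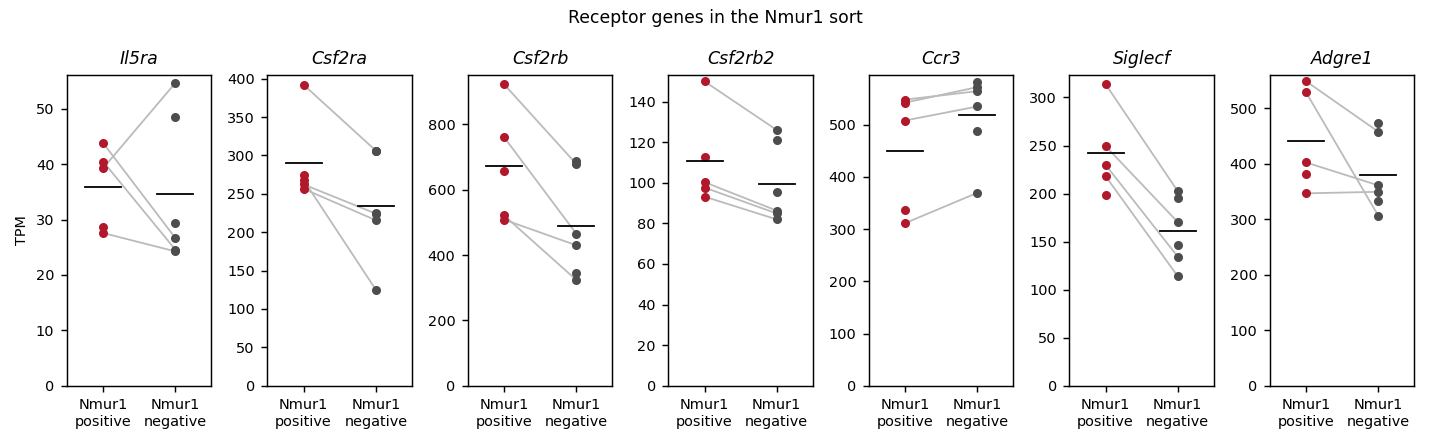
TPM of the 7 receptor genes (vertical axes, linear and starting at 0) in Nmur1 positive (left, n = 5) and Nmur1 negative (right, n = 6) libraries. Points are libraries, black lines are means and grey lines join libraries with the same replicate number. Siglecf averages 242 TPM in positive and 161 TPM in negative libraries, and is higher in the positive library of all 4 pairs.

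Genes whose tissue pattern was most like that of a member were found by Pearson r of log2(TPM + 1) over the 24 tissue libraries, among 5673 candidates. For Csf2rb these were Tmem123 (0.97), Antxr2 (0.97) and Rab8b (0.95), and for Csf2rb2 they were Rbpj (0.93), Nfil3 (0.93) and Gnb1 (0.92). Csf2ra was nearest to Tollip (0.95), Csnk1a1 (0.92) and Wsb1 (0.91). Il5ra was nearest to Akna (0.89), Tuba8 (0.88) and Zfp984 (0.88), and Ccr3 to Ramac (0.91), Fam102a (0.91) and Crlf3 (0.90). Siglecf was nearest to Stard5 (0.88), P2ry14 (0.84) and Ndfip2 (0.83), and Adgre1 to Cdc42 (0.95), Fgl2 (0.92) and Lyn (0.92). These values describe libraries that share tissues and scaling.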

How the data were processed

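Gene expression was measured by Smart-seq2, a full-length cDNA method, in 24 tissue and 11 sorted libraries. The authors deposited 2 tables of TPM, made with cutadapt 2.10, STAR 2.7.5c and RSEM 1.3.3 on mm10, per the submitters' processing notes. The sources used here do not name the annotation, the number of reads or how genes were filtered before deposit. Deposited columns summed to 796048 to 890768 TPM in the tissue table and 799585 to 863816 TPM in the sorted table, and the tables were analysed separately. A single-cell sample was not analysed here. TPM keeps no depth, so precision is given by the spread between libraries.

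Values were analysed as log2(TPM + 1), which understates the change of low genes, with limma 3.58.1 in R 4.3.3 (eBayes with trend, two-sided). Genes with at least 1 TPM in at least 3 tissue or 5 sorted libraries were tested, 9806 and 7982 genes, and Benjamini-Hochberg adjusted p-values under 0.05 over all of them were called. All tissues shared 1 estimate of the spread. Each change had the change of the median gene subtracted, and calls and p-values test the change before this shift. The shift was 0.14 in small intestine against blood, -0.43 in lung against blood and 0.22 in the sort. It was -0.155 for small intestine, colon, skin and lung pooled. Ratios within a library were tested by exact permutation, and in the sort also by an exact sign-flip test over pairs.

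On simulated data for small intestine against blood (9676 genes), 54% of genes changed by 1 on the log2 scale were called. Of those changed by 2, 95% were called. In the sort (7965 genes) the shares were 55% and 98%. Only 100 genes were changed by each size, none of low abundance, and all others had no difference between groups. In the deposited data 44.0% of genes were called in small intestine against blood, so recovery there can differ. Alternatives were pseudocounts of 0.1 and 5 TPM, no filter, median-ratio scaling, quantile normalization, robust eBayes, fits of the tissues compared alone, a replicate block, each library left out, and Csf2rb and Csf2rb2 summed. In the sort, all 4 pairs of libraries with the same number in their titles deviated together (Pearson r of deviations 0.16 to 0.23), so the numbers were taken to pair them. Sequences came from the GENCODE annotation of mm10 and from RefSeq. The members and lists were chosen with earlier results of these data known. All 7 members are named in the comparisons, and of the other lists those called members with the largest change are named; the part of them printed was chosen after seeing values.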

Additional observations from a re-analysis of the deposited data

Results flagged for a closer look

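In 3 places 1 library stood far from the others of its group, by the gap to its nearest neighbour as a share of the group's range. Chance flags about 1 in 20 groups. Each receptor gene and each ratio was checked in every group of at least 4 libraries, so a few flags are expected by chance alone. The 3 flags were not shown to exceed that. Groups with fewer than 4 libraries were not checked. Csf2ra reached 392.0 TPM in Nmur1 positive replicate 8 (n = 5), where the other 4 libraries lay between 256 and 274 TPM. Ccr3 was at 484 TPM in small intestine replicate 1 (n = 4), where the others lay between 524 and 529 TPM. Il5ra over the summed beta chains was 0.641 in spleen replicate 2 (n = 4), a library with 115 TPM of Il5ra.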

How the results depend on the processing

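Of 2167 values of single genes under all alternatives, 2081 kept their direction and their side of the threshold, 34 lost a call, 21 gained one and 31 changed sign; the cause was not tested. Robust eBayes, no filter and a pseudocount of 0.1 TPM changed 0 values. Shares of all genes called under the alternatives are not given here. Median-ratio scaling gave 6 called genes in lung against blood and 0 in the sort. The replicate block, which paired libraries of the sort, gave 2 in the sort, with Il5ra at 0.0452 and Adgre1 at 0.0665 there. Paired ratios in the sort (added after seeing the data) differed by 0.31 for Csf2rb over Csf2rb2 and 0.83 for Siglecf over Ccr3, both with exact sign-flip p = 0.125, the lowest that 4 pairs allow, and by 0.00927 for Csf2ra over the beta chains. The block moved no other count by over 1.5 times, and ended 1 other call, Csf2ra in skin against blood. Tissue numbers did not pair (62 pairs, r -0.05 to 0.09). With a pseudocount of 5 TPM, Csf2rb over Csf2rb2 in the sort differed by 0.34 (exact permutation p = 0.0519), Il5ra over the beta chains in small intestine against colon by 0.0075, Adgre1 gave -0.0820 in lung and Ccr3 0.0021 in spleen against blood, and Adgre1 0.0446 in the sort. Quantile normalization gave Siglecf -0.22 in barrier tissues and -0.0782 in small intestine against blood, Adgre1 -0.40 in lung and Csf2ra 0.25 in bone marrow against blood, and Csf2rb2 0.0327 and Adgre1 0.21 in the sort. Without the bone marrow libraries (added after seeing the data), Adgre1 was -0.13 in small intestine against the other tissues and Siglecf -0.10 in barrier tissues. Summing Csf2rb and Csf2rb2 gave 0.98 in small intestine against the other tissues and 0.22 in the sort.

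With each library left out in turn, the count in small intestine against the other tissues ran from 3 to 6 and in the sort from 0 to 1. Changes that crossed 0 ran from -0.18 to 0.0176 (Il5ra, skin), -0.14 to 0.0572 (Csf2ra, bone marrow), -0.11 to 0.0667 (Ccr3, spleen), -0.00769 to 0.17 (Adgre1, lung) and -6.68e-05 to 0.24 (Siglecf, small intestine), all against blood, and from -0.24 to 0.0600 for Csf2rb2 in small intestine against the other tissues. In the sort they ran from -0.0890 to 0.0866 (Adgre1), -0.16 to 0.0264 (Csf2rb2), -0.00384 to 0.23 (Csf2ra) and -0.19 to 0.0355 (Il5ra). Ratios gave values without a test when a library was left out. Because TPM keeps no read counts, no limit of detection could be set, and small differences were limited by 3 to 6 libraries per group.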
